A study of Mus musculus with 8 samples.

Results

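Voltage-gated and potassium channel genes were taken as every gene whose symbol begins with Kcn, Cacn or Hcn, or that is a numbered Scn alpha or beta subunit, the symbol being found through the RefSeq accession that a probe carries. The array held 138 such genes on 190 probes. Of these, 95 were tested among 24644 genes in all, because in some group each of the 2 arrays read their probe well above background, and 78 of the 95 were well above background on all 8 arrays. The remaining 43 were not kept, and 25 of them were above background on 0 arrays. Genes not kept include the calcium channel genes Cacna1b, Cacna1c and Cacna1e, the pacemaker channel gene Hcn4, and the potassium channel genes Kcna2, Kcnq3, Kcnn1, Kcnj3 and Kcnj6, so a change in them was not measurable here. Scn9a and Scn3b were not analysed here. The symbol rule also takes in Kcnq1ot1, a noncoding RNA, and Kcnrg, a regulator of potassium channels, neither of which forms a pore.

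The cells were motor neuron cultures made from male mouse embryonic stem cells that carry an Hb9-GFP reporter, in which green fluorescent protein marks the motor neuron gene Hb9. Embryoid bodies, which are floating cell aggregates, received retinoic acid and Sonic hedgehog, were then split into single cells, and were kept with GDNF until sampling. The 4 groups, of 2 arrays each, were the Litchi knockout at day 9, its control at day 9, the knockout at day 7 and its control at day 7. All groups share the reporter, the differentiation factors and the dissociation, and the control is described as wild type in the series design. The labels give neither the number of knockout clones nor the nature of the deletion, and separate cultures are not stated for the replicates. The p-values given here therefore rest on a spread between samples that may be only technical. Litchi was found 0 times among the gene names, so its loss could not be checked.

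Ion channels set how a neuron responds to input. Voltage-gated sodium channels carry the upstroke of the action potential, voltage-gated calcium channels turn depolarisation into calcium entry, and potassium channels set the resting potential, repolarise the membrane and limit repetitive firing. Motor neurons acquire these currents step by step as they mature. Most channels consist of a pore-forming subunit, which gives the family its name, and accessory subunits that change its gating or its delivery to the membrane.

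Promoter sequences of 3 members are shown. Each gene was called in knockout cells on day 9 and in the mean over both days, stayed called in that mean with any 1 of the 8 arrays left out, and has a single start in the RefSeq table used. Cacng2 and Kcnc4 were lower in knockout cells and Kcne1l was higher. Each window is the 250 bases before the annotated start, on the minus strand of GRCm38.p6, from RefSeq, written 5′ to 3′ with each CpG in capitals. The window of Cacng2 lies at chr15:78119281-78119530 and holds 16 CpG, that of Kcnc4 at chr3:107458899-107459148 with 12 CpG, and that of Kcne1l at chrX:142306199-142306448 with 9 CpG.
Cacng2: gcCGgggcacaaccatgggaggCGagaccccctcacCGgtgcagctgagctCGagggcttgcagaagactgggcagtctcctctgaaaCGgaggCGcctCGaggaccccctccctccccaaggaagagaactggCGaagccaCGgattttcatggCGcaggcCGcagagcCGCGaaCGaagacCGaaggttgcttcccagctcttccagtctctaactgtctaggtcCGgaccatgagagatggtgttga
Kcnc4: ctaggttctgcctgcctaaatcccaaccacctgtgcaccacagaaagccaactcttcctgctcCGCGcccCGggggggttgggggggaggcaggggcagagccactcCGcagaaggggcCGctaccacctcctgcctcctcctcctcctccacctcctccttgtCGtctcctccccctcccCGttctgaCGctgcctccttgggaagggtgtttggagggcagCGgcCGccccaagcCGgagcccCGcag
Kcne1l: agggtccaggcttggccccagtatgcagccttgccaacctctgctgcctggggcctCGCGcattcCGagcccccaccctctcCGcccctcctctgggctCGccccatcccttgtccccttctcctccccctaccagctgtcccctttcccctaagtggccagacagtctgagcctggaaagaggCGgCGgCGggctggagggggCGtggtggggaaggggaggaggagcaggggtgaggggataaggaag
All 3 windows hold more CpG than the median window of all genes and of the tested channel genes. A median of 6 CpG was found over 32851 such windows of all genes and of 8 over the 94 windows that matched 69 of the tested channel genes, with median GC contents of 58.8% for the channel genes and 52.4% for all windows. For channel genes called in the mean over both days, the median was 9 CpG for those lower and 17 for those higher.

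Levels below are log2 processed signals relative to the 75th percentile of the array, so that 0 is the level of a probe at that percentile. They are compared only within a gene. Where a gene has several kept probes, its values are those of the brightest on average. Changes are log2 differences ± standard error (SE) from 1 limma fit of all 8 arrays, and a gene was called at a Benjamini-Hochberg adjusted p under 0.05 over all 24644 genes.

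Channel genes were lower in knockout than in control cells more often than they were higher. In the mean of the knockout effects of both days, which sets 4 arrays against 4, 37 of the 95 channel genes were called, 4 higher and 33 lower. Over all genes 14.8% were called, 5.49% higher and 9.35% lower. The median log2 change of the 95 was -0.35, beside -0.04 for all genes. Among the 78 channel genes above background on all arrays, 4 were called higher and 28 lower, with a median of -0.36. In 41 channel genes both knockout arrays lay below both control arrays on both days, which 16.9% of all genes did. In 5 channel genes they lay above, which 13% of all genes did.

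The scaling of the arrays moves all genes together and changes these counts. With each array centred on its median in place of its 75th percentile, the median change of all genes was 0.14 and that of the channel genes was -0.17, and 7 channel genes were called higher and 16 lower. The channel median minus that of all genes was -0.31 under both scalings, which must be so because each shifts all genes of an array equally. That difference was -0.23 with another background correction (normexp). With quantile normalization and with the authors' deposited log2 table it was -0.27. None of the 37 called genes changed sign under the 4 other scalings and backgrounds that were tried. Every left-out array lowered the count. Dropping replicate 2 of day 9 left 8 calls (knockout) or 25 (control), dropping replicate 1 of day 9 left 12 (knockout) or 11 (control), dropping replicate 2 of day 7 left 15 (knockout) or 13 (control), and dropping replicate 1 of day 7 left 18 with either genotype. Cacng2, Kcnc4, Kcnip4, Kcnk3, Kcnk10, Kcnma1 and Kcne1l were called in all 8 of these fits. By contrast, Cacna1h, Cacna2d3, Cacnb3, Kcnc1, Kcnj12, Kcnk1, Kcnn2 and Scn3a were called in none of them.

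Markers of several cell types moved along with the channel genes, and neuronal markers were among those that were lower in knockout cells. Of 12 pan-neuronal genes, 10 were called lower, among them Tubb3 and Map2, and 0 higher in the mean of both days. Snap25 (-0.72 ± 0.31, adjusted p = 0.155) and Nefm (-0.63 ± 0.17, adjusted p = 0.0559) were not called. The 12 genes had a median log2 change of -0.67, and 0 of them were below background on both arrays of any group. Their summed level, in multiples of the 75th percentile, was 145 and 151 in knockout cells on day 9, against 335 and 266 in control cells. On day 7 it was 310 and 328 in knockout cells, against 422 and 484 in control cells. Of 8 motor neuron genes 4 were called lower, among them Chat, which makes acetylcholine (-0.96 ± 0.17, adjusted p = 0.0196), and 1 higher, the transcription factor Lhx3 (0.91 ± 0.11, adjusted p = 0.00996). Of 8 fibroblast and mural cell genes 7 were called higher and 0 lower, with a summed level of 149 and 128 in knockout cells on day 9, against 77.9 and 85.1 in control cells. On day 7 that sum was 79.4 and 60.3 in knockout cells, against 41.2 and 29.2 in control cells. Of 10 neural progenitor and radial glia genes 3 were called higher and 1 lower. Genes of non-neural cells were lower too: 5 of 5 tested trophoblast genes were called lower, with a summed level of 0.317 and 0.231 in knockout cells on day 9, against 1.77 and 4.45 in control cells. On each day 2 of these 5 were below background on both knockout arrays. Of 5 genes of pluripotent cells 4 were called lower and 0 higher, with a median log2 change of -1.23. These are bulk cultures, in which fewer cells of a type and less RNA per cell cannot be told apart. The part of the cell makeup in the channel results was not tested.

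**Figure D1:**
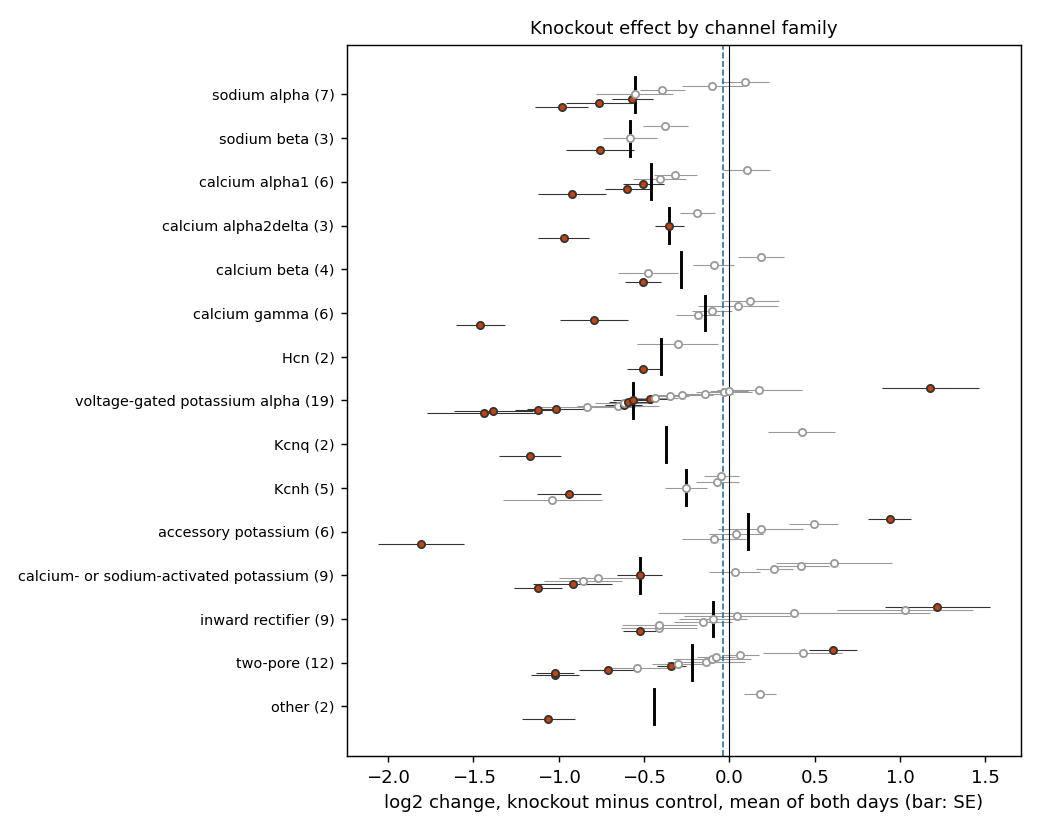
Log2 change of each tested channel gene in the mean of the knockout effects of both days (horizontal axis, knockout minus control), by channel family (rows). Points are genes with SE bars, filled where called at an adjusted p under 0.05, the black bar is the family median and the dashed blue line is the median of all genes, -0.04. The 33 genes called lower lie to the left of 0, and the 4 called higher (Kcnj10, Kcns3, Kcne1l and Kcnk5) to the right.

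Among sodium channel genes, the alpha subunits form the pore, and 3 of 7 were called lower and 0 higher in the mean of both days: Scn2a, Scn3a and Scn8a, all of which work in central neurons. On day 9 Scn2a had log2 levels of 0.57 and 0.25 in knockout cells, against 1.54 and 1.42 in control cells. On day 7 its levels were 0.52 and 0.13 in knockout cells, against 1.44 and 1.01 in control cells. The groups did not overlap on either day. The mean log2 change of Scn2a was -0.98 ± 0.16 (1.98-fold lower, adjusted p = 0.0163). Of its other 2 kept probes, 1 gave a change of -0.96 ± 0.14 (adjusted p = 0.0146) and the other -0.33 ± 0.09 (adjusted p = 0.0533).

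Scn8a, the main sodium channel of the mature axon initial segment, had log2 levels of 5.07 and 5.11 in knockout cells, against 5.29 and 5.36 in control cells on day 9. The corresponding day 7 levels were 4.83 and 4.40 in knockout cells, against 5.60 and 5.44 in control cells. All knockout arrays again lay below all control arrays of the same day, with the wider gap on day 7, although the difference between the days was not called (0.68 ± 0.24, adjusted p = 0.826). Its mean log2 change was -0.57 ± 0.12 (adjusted p = 0.0307). The call rests on the brighter of its 2 kept probes, as the other changed by -0.07 ± 0.14 (adjusted p = 0.769). Scn3a, which is used mainly before birth, changed by -0.76 ± 0.19 (adjusted p = 0.0471), and both knockout arrays were below both control arrays on each day. Its other 2 kept probes changed by -0.97 ± 0.21 (adjusted p = 0.0325) and -0.42 ± 0.22 (adjusted p = 0.219). Scn1a, an alpha subunit of fast-firing neurons, did not pass the test (-0.55 ± 0.23, adjusted p = 0.142).

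Scn2b and Scn4b encode beta subunits, accessory proteins that change gating and act in cell adhesion. Their changes were -0.38 ± 0.13 and -0.58 ± 0.16, with adjusted p of 0.104 and 0.0539. The muscle sodium channel gene Scn4a had a change of 0.09 ± 0.14 (adjusted p = 0.679). None of these passed the test.

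Calcium channel genes were called lower in 8 of 19 tested members and higher in 0. Among the pore-forming alpha1 subunits, 3 of 6 were called: Cacna1d (-0.92 ± 0.20, adjusted p = 0.0315) and Cacna1s (-0.51 ± 0.12, adjusted p = 0.0399), both L-type, and Cacna1h (-0.60 ± 0.13, adjusted p = 0.0335), T-type. Cacna1s is best known from skeletal muscle. Cacna1d has a kept second probe with a change in the other direction, 0.39 ± 0.38 (adjusted p = 0.507), so its call rests on 1 of its 2 probes, and 1 knockout array of day 7 was not well above background. The call of Cacna1h also rests on 1 of 2 probes, the other having a change of -0.25 ± 0.15 (adjusted p = 0.294). Cacna1i, another T-type gene, was not called (-0.41 ± 0.16, adjusted p = 0.126), while its dimmer probe passed (-1.02 ± 0.10, adjusted p = 0.00694). Cacna1a, the P/Q-type channel of motor nerve terminals, had log2 levels of 0.16 and 0.24 in knockout cells, against 0.60 and 0.68 in control cells on day 9. On day 7 its levels were -0.04 and -0.33 in knockout cells, against 0.20 and -0.18 in control cells. The groups were apart on day 9 and overlapped on day 7, and the mean change of -0.32 ± 0.13 was not called (adjusted p = 0.135). The dimmer of its 2 kept probes passed the test, with a change of -0.41 ± 0.09 (adjusted p = 0.0319).

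The alpha2delta subunits, which carry calcium channels to the membrane, had 2 of 3 genes called lower. Cacna2d2 had day 9 log2 levels of 1.04 and 1.10 in knockout cells, against 2.26 and 1.81 in control cells. Its day 7 levels were 0.80 and 0.43 in knockout cells, against 1.72 and 1.47 in control cells. There was no overlap on either day, and the mean change was -0.97 ± 0.15 (1.96-fold lower, adjusted p = 0.0159). Cacna2d3 differed by -0.57 ± 0.12 on day 9 (adjusted p = 0.0482) and by -0.13 ± 0.12 on day 7 (adjusted p = 0.601). Cacna2d1 was not called (-0.19 ± 0.10). Of 4 beta subunits, which sit on the inner face of the channel, Cacnb3 was called lower (-0.51 ± 0.11, adjusted p = 0.0292).

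Cacng2 had the smallest adjusted p of any channel gene in the mean of both days. It encodes stargazin, which is named with the calcium channel gamma subunits and is best known for carrying AMPA-type glutamate receptors to synapses. On day 9 its log2 levels were -0.63 and -0.93 in knockout cells, against 1.10 and 0.64 in control cells. On day 7 they were -1.05 and -1.07 in knockout cells, against 0.33 and 0.08 in control cells. All 4 knockout arrays lay below all 4 control arrays. The mean log2 change was -1.46 ± 0.14 (2.75-fold lower, adjusted p = 0.00662). Cacng7, a related gene, was called too (-0.79 ± 0.20, adjusted p = 0.0447), and the other 4 gamma subunit genes tested were not.

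Pore-forming subunits of voltage-gated potassium channels were the largest family, with 19 genes tested, 8 called lower and 1 higher. The genes called lower included Kcna1, Kcna6, Kcnb2, Kcnc1, Kcnc2, Kcnc4 and Kcnd3. Kcna1, a delayed rectifier of axons, had log2 levels of -1.98 and -2.01 in knockout cells, against -0.25 and -0.17 in control cells on day 9. On day 7 it stood at -2.14 and -2.76 in knockout cells, against -1.01 and -1.92 in control cells. The knockout arrays were below the control arrays on both days, by a narrow margin on day 7. The mean log2 change was -1.38 ± 0.23 (2.61-fold lower, adjusted p = 0.0181).

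Kcnc genes encode channels that close fast and allow rapid firing. Kcnc4 had day 9 log2 levels of -3.83 and -3.89 in knockout cells, against -2.48 and -2.24 in control cells. Its day 7 levels were -4.83 and -5.06 in knockout cells, against -3.99 and -4.40 in control cells, and knockout replicate 2 of day 7 was not well above background. No knockout array reached a control array of the same day, and the mean change was -1.12 ± 0.13 (2.18-fold lower, adjusted p = 0.00962). Kcnc2 changed by -1.44 ± 0.34 (adjusted p = 0.0384), with 1 array of each day 7 group below background, and Kcnc1 by -0.47 ± 0.11 (adjusted p = 0.0413).

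Kcnd3 encodes a channel of the transient A-type current. Its log2 levels on day 9 were 1.63 and 1.32 in knockout cells, against 2.64 and 2.65 in control cells. On day 7 they were 1.65 and 1.28 in knockout cells, against 2.62 and 2.04 in control cells. Knockout and control arrays stayed apart on both days, and the mean change was -1.02 ± 0.17 (adjusted p = 0.018). Kcnd2, its close relative, had a change of -0.65 ± 0.24 and was not called (adjusted p = 0.115). Kcna4 also was not called (-0.44 ± 0.14, adjusted p = 0.0752), while Kcnb2 was (-0.62 ± 0.11, adjusted p = 0.0196).

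Kcnip4, which encodes an accessory subunit that binds A-type channels and changes their gating, had the largest fall of the 95 channel genes on day 9 and in the mean of both days. On day 7, with a change of -1.31, it came after Kcnc2 (-1.33) and Kcnh5, which was below background on both knockout arrays, and none of the 3 was called. On day 9 its log2 levels were -0.91 and -1.81 in knockout cells, against 0.69 and 1.21 in control cells. On day 7 they were -2.26 and -1.62 in knockout cells, against -0.63 and -0.63 in control cells. The groups did not overlap on either day. The log2 change was -2.31 ± 0.36 on day 9 (4.95-fold lower, adjusted p = 0.0274) and -1.81 ± 0.25 in the mean of both days (adjusted p = 0.0135). Kcnip1 and Kcnip3 had mean changes of -0.09 ± 0.19 and 0.49 ± 0.14 and were not called.

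Kcnq5, a channel of the M-current, which holds neurons back from repeated firing, had a change of 0.42 ± 0.20 and was not called (adjusted p = 0.187). Among 5 Kcnh genes, Kcnh8 was called lower (-0.94 ± 0.19, adjusted p = 0.0258). Kcnh5 was not called. Both its knockout arrays and 1 control array of day 7 were below background, so that no bound can be given for its day 7 difference (adjusted p = 0.136). Of the 2 pacemaker channel genes kept, Hcn3 was called lower (-0.50 ± 0.10, adjusted p = 0.0237) and Hcn2 was not (-0.30 ± 0.24, adjusted p = 0.415).

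Among potassium channels opened by calcium or sodium, 3 of 9 genes were called lower and 0 higher. Kcnma1, the pore of the large-conductance BK channel, had log2 levels of -1.49 and -1.26 in knockout cells, against -0.01 and -0.13 in control cells on day 9. On day 7 its levels were -1.51 and -1.72 in knockout cells, against -0.43 and -0.92 in control cells. All 4 knockout arrays lay below all 4 control arrays, and the mean change was -1.12 ± 0.14 (2.18-fold lower, adjusted p = 0.0112). Kcnmb4, a BK beta subunit of neurons, changed by -0.92 ± 0.23 (adjusted p = 0.0451), and Kcnn2, a small-conductance channel of the afterhyperpolarisation, by -0.53 ± 0.13 (adjusted p = 0.0462). Kcnn3 (0.03 ± 0.15) and the sodium-activated Kcnt1 (-0.86 ± 0.23, adjusted p = 0.0513) were not called.

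Two-pore domain channels carry the leak current that sets the resting potential, and 4 of 12 were called lower and 1 higher. Kcnk10, a mechanically and thermally gated channel, had day 9 log2 levels of 0.35 and 0.08 in knockout cells, against 1.33 and 1.09 in control cells. Its day 7 levels were 0.48 and 0.42 in knockout cells, against 1.54 and 1.47 in control cells. The knockout arrays were lower on both days by a similar amount, and the mean change was -1.02 ± 0.11 (2.03-fold lower, adjusted p = 0.00745). Kcnk3, an acid-sensitive leak channel of motor neurons, stood at -2.53 and -2.09 in knockout cells, against -0.88 and -1.23 in control cells on day 9. On day 7 it stood at -2.59 and -2.69 in knockout cells, against -1.82 and -1.89 in control cells. It also was lower without overlap, by -1.02 ± 0.14 (2.03-fold, adjusted p = 0.0129). Kcnk15 (-0.71) and Kcnk1 (-0.34) were called lower by less, 1 knockout array of Kcnk15 on day 9 was not well above background, and Kcnk9 was not called (-0.54 ± 0.19, adjusted p = 0.0969).

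Inward rectifiers showed no common direction, with 1 of 9 genes called higher and 1 lower. Kcnj12, which helps hold the resting potential, was lower (-0.53 ± 0.10, adjusted p = 0.0228). Kcnj10, the potassium-buffering channel of astrocytes and other glia, had log2 levels of -2.30 and -2.69 in knockout cells, against -4.93 and -3.95 in control cells on day 9. On day 7 the levels were -2.89 and -1.88 in knockout cells, against -3.08 and -2.68 in control cells. The knockout arrays were higher without overlap on day 9, and overlapped the control arrays on day 7. Its mean change was 1.22 ± 0.31 (2.33-fold higher, adjusted p = 0.0464), and the change on day 9 alone, 1.94 ± 0.44, was not called (adjusted p = 0.0556). Of 4 tested astrocyte genes 0 were called, with summed levels of 22.2 and 13.0 in knockout cells on day 9, against 5.86 and 10.01 in control cells, and Gfap and S100b, which define the type, did not pass the filter. Of 7 genes of the oligodendrocyte lineage 2 were called higher in the mean and 0 lower, Olig1 (1.78 ± 0.26, adjusted p = 0.0146) and Olig2 (1.93 ± 0.26, adjusted p = 0.0129). Among the 10 progenitor and radial glia genes, those called higher were Pax6 (1.51 ± 0.23), Hes5 (1.03 ± 0.24) and Sox9 (1.00 ± 0.23). Sox1 was called lower (-0.53 ± 0.10, adjusted p = 0.0217) and the others were not called. The median log2 change of that list was 0.16. The part of glial cells in the change of Kcnj10 was not tested.

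Kcne1l, an accessory subunit gene on the X chromosome, was the channel gene called higher on day 9. Its log2 levels on day 9 were 1.38 and 1.20 in knockout cells, against -0.20 and 0.21 in control cells. On day 7 they were 0.06 and -0.11 in knockout cells, against -0.57 and -0.67 in control cells. Knockout cells were higher without overlap on both days. The log2 change was 1.29 ± 0.18 on day 9 (2.44-fold higher, adjusted p = 0.0209) and 0.94 ± 0.13 in the mean (adjusted p = 0.0125). Both calls rest on the brighter of its 2 kept probes. The other changed by 0.18 ± 0.27 on day 9 (adjusted p = 0.708) and by 0.19 ± 0.19 in the mean (adjusted p = 0.533). The other 2 genes called higher in the mean were Kcns3, a subunit that forms no channel alone (1.18 ± 0.28, adjusted p = 0.0413), and Kcnk5, an alkaline-activated leak channel (0.61 ± 0.14, adjusted p = 0.0388).

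On day 9 alone, 16 channel genes were called, 1 higher and 15 lower, where 5.47% of all genes were called, 1.5% higher and 3.96% lower. All 16 were among the 37 called in the mean of both days. The median log2 change of the 95 genes was -0.36, beside -0.02 for all genes, and 71 of 95 were below 0, as were 52.1% of all genes. With arrays centred on their medians the medians were -0.13 for channel genes and 0.21 for all genes, and 4 channel genes were called higher and 8 lower. With another background correction (normexp) 1 was higher and 5 lower. No call of day 9 was kept in all 8 fits with 1 array left out: 0 channel genes were called without knockout replicate 1, knockout replicate 2 or control replicate 1 of day 9, 5 without control replicate 2 of day 9, 9 without either knockout array of day 7 and 10 without either control array of day 7. On day 9, 4 of 12 pan-neuronal genes were called lower and 0 higher (median -0.95).

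The 15 genes lower on day 9 ran from -2.31 for Kcnip4 to -0.57 for Cacna2d3 on the log2 scale. Behind Kcnip4 came Kcna1 (-1.78), Cacng2 (-1.65), Kcnc4 (-1.50) and Kcnma1 (-1.30). Kcnrg, named for its effect on potassium channels, fell by 1.28 on the log2 scale (adjusted p = 0.0326), Kcnk3 by 1.26, Kcnd3 by 1.17, Scn2a by 1.07 and Kcnk10 by 0.99. Hcn3 fell by 0.78, Kcnj12 by 0.74 and Kcnk1 by 0.61. The log2 levels of Hcn3 on day 9 were -1.20 and -1.03 in knockout cells, against -0.29 and -0.39 in control cells. Arrays of a group lay farther apart for Kcnip4, with an SD of 0.64 in knockout and 0.37 in control cells on day 9, than for Hcn3, with 0.13 and 0.07.

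**Figure D2:**
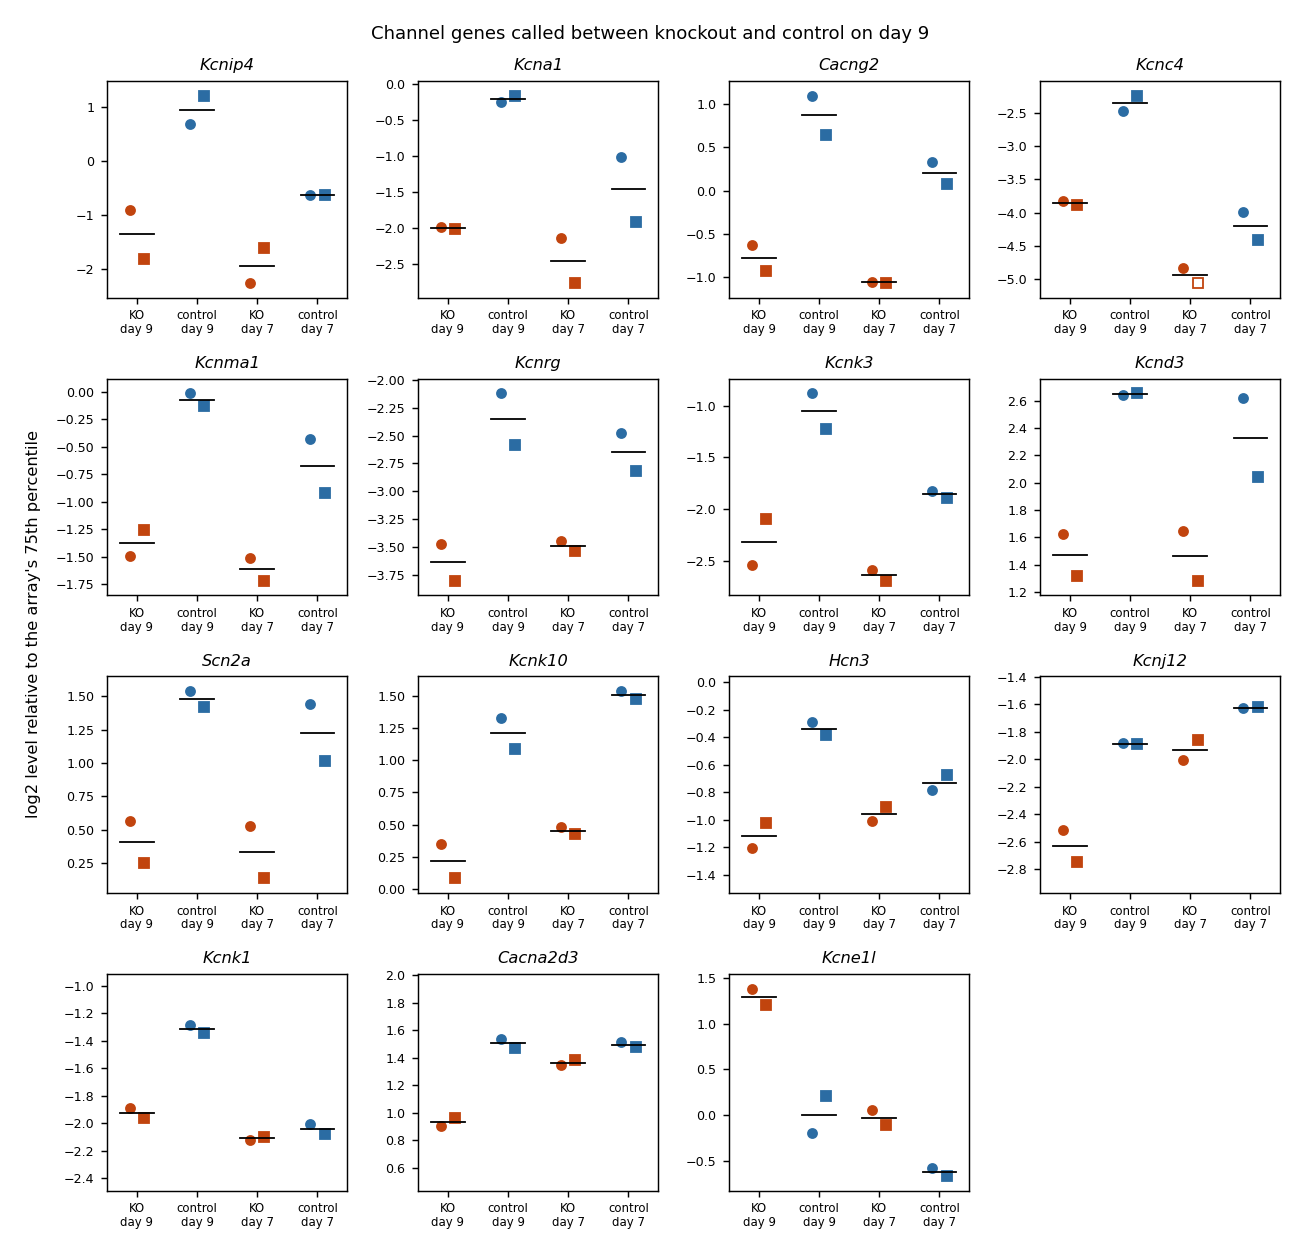
Log2 level relative to the array's 75th percentile (vertical axis, a scale per gene) of 15 of the 16 channel genes called between knockout (KO) and control on day 9, in all 4 groups. Circles are replicate 1 and squares replicate 2, open symbols are not well above background, and the line is the group mean. On day 9 both knockout arrays lie below both control arrays in each panel from Kcnip4 to Cacna2d3, and above them in the panel of Kcne1l.

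On day 7, limma called 0 of the 95 channel genes, and 0.215% of all genes. At an unadjusted p under 0.05 there were 5 channel genes higher and 31 lower, where 7.08% and 11.8% of all genes passed. The smallest adjusted p were those of Kcnk10 (-1.05 ± 0.15, adjusted p = 0.067) and Cacng2 (-1.27 ± 0.20, adjusted p = 0.0744). Of the 95 log2 changes 72 were below 0, as were 55.8% of all genes, and the median was -0.32, beside -0.05 for all genes. Both knockout arrays lay below both control arrays in 52 channel genes, which 27.8% of all genes did, and above them in 9, which 20.5% did. Restricting the test to probes above background on all 8 arrays gave 2 calls, both lower, and normexp, quantile normalization, median centring and the authors' deposited log2 table gave 0. Of 12 pan-neuronal genes 0 were called on day 7 and 6 had an unadjusted p under 0.05, all lower.

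The knockout effects of the days were also set against each other. The interaction term was called for 0 of 95 channel genes and for 0.00406% of all genes, and at an unadjusted p under 0.05 it was above 0 in 7 channel genes and below 0 in 5, where 2.67% and 3.34% of all genes passed. Across the 95 genes the day 9 and day 7 effects, which share no array, had a Pearson r of 0.669, beside 0.604 across all genes. They are given as a description, since genes are not independent replicates. In 62 channel genes both effects were below 0 and in 14 both were above 0. The matching shares over all genes were not determined, and 55.8% of all genes were below 0 on day 7 and 52.1% on day 9. A difference between the days was therefore not detectable for any single channel gene with 2 arrays per group, which does not show that the effects were equal.

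**Figure D3:**
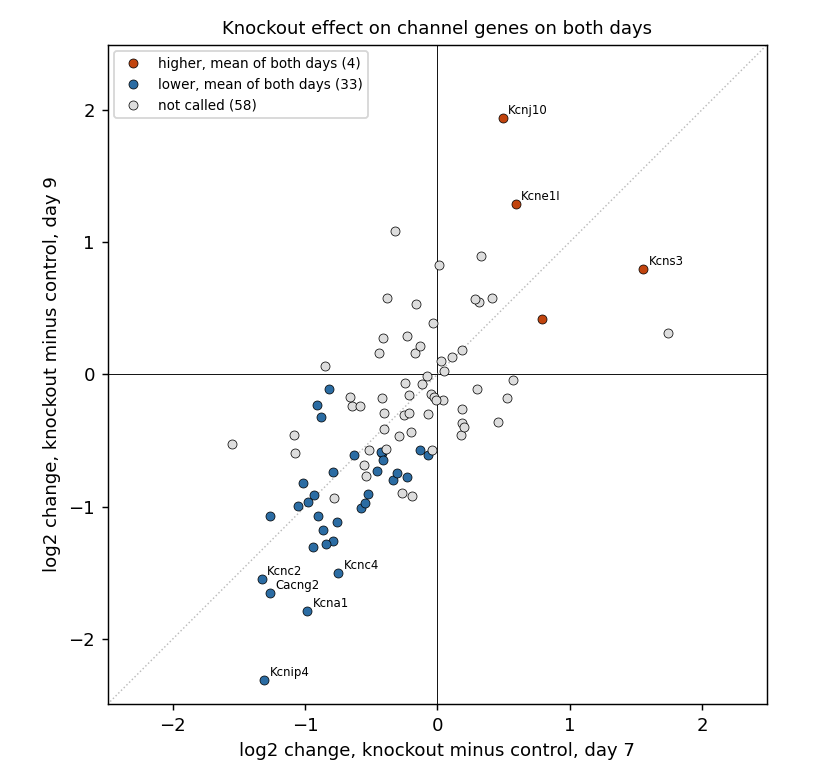
Log2 change between knockout and control cells on day 7 (horizontal axis) and on day 9 (vertical axis) for the 95 channel genes, coloured by the call in the mean of both days. The 33 genes called lower lie at the lower left and the 4 called higher at the upper right, and the dotted line marks equal changes.

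Cacna1g, a T-type calcium channel gene, was the 1 channel gene whose groups were apart in opposite directions on the 2 days. Its log2 levels on day 9 were 2.41 and 2.20 in knockout cells, against 1.49 and 1.95 in control cells. On day 7 they were 0.88 and 1.12 in knockout cells, against 1.39 and 1.37 in control cells. Knockout cells were thus higher on day 9 and lower on day 7, which 1.05% of channel genes and 1.97% of all genes showed. The pattern was therefore not more frequent among channel genes. The interaction was 0.96 ± 0.27 (adjusted p = 0.773) and was not called. Its dimmer kept probe changed by -0.10 ± 0.26 on day 7 and by 0.51 ± 0.26 on day 9, with an interaction of 0.61 ± 0.37 (adjusted p = 0.875).

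Between the days, channel genes were called higher on day 9 than on day 7 in both genotypes. In knockout cells 19 were called, 15 higher and 4 lower, where 8.31% of all genes were called, 4.14% higher and 4.17% lower. In control cells 11 were called, 10 higher and 1 lower, where 7.36% were called, 4.11% higher and 3.25% lower. Both comparisons called 8 channel genes, and the matching overlap over all genes was not determined. As a description, the day effects of knockout and control cells had a Pearson r of 0.804 across the 95 genes, beside 0.714 across all genes. The median log2 change of the 95 genes was 0.09 in knockout cells and 0.27 in control cells, beside -0.12 for all genes in each. With arrays centred on their medians, 18 were called higher and 1 lower in knockout cells. With normexp, 2 were called higher and 1 lower in control cells.

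These calls also depended on single arrays. For knockout cells, dropping one of their own arrays left 2 (day 9 replicate 2), 3 (day 7 replicate 2), 4 (day 9 replicate 1) or 5 calls (day 7 replicate 1), and dropping a control array left 14 to 16. For control cells, dropping one of their own arrays left 1 (day 7 replicate 2), 3 (day 9 replicate 2) or 7 calls (replicate 1 of either day), and dropping a knockout array left 7 (day 9) or 11 (day 7). Kcnmb1 was called in all of these fits in both genotypes.

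Kcnmb1 encodes a beta subunit of the BK channel that is best known from smooth muscle. In knockout cells its log2 levels were -0.65 and -0.75 on day 9, against -2.92 and -3.02 on day 7. In control cells they were -0.82 and -0.50 on day 9, against -3.51 and -3.56 on day 7. The days were far apart in both genotypes, with changes of 2.27 ± 0.15 (4.82-fold higher, adjusted p = 0.00482) in knockout and 2.88 ± 0.15 (7.36-fold higher, adjusted p = 0.00373) in control cells. Kcnmb2, another BK beta subunit, was called in knockout cells (2.35 ± 0.48, adjusted p = 0.0352) and had a change of 1.78 ± 0.48 in control cells (adjusted p = 0.0761), where 1 array of day 7 was below background. The fibroblast and mural list had 1 of 8 genes called higher on day 9 in knockout cells and 3 of 8 in control cells. Its smooth muscle gene Acta2 changed by -0.28 ± 0.21 in knockout (adjusted p = 0.447) and by 1.00 ± 0.21 in control cells (adjusted p = 0.0426). The part of such cells in the change of Kcnmb1 was not tested.

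Cacng3, a relative of Cacng2 that also works with AMPA receptors, had log2 levels of -3.71 and -2.75 on day 9, against -6.86 and -6.28 on day 7 in control cells. Neither control array of day 7 was well above background, so its rise was at least 7.63-fold (adjusted p = 0.00821), as a bound against the higher of its own signal and the lowest signal above background on each array. Its levels in knockout cells were -3.55 and -3.62 on day 9, against -6.06 and -6.17 on day 7, with 1 array of day 7 below background. That change was 2.53 ± 0.33 (adjusted p = 0.00982). Day 9 was higher in both genotypes without overlap.

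Kcnk2, a mechanically gated leak channel related to Kcnk10, stood at -2.93 and -2.996 on day 9, against -5.57 and -5.35 on day 7 in knockout cells. In control cells it stood at -4.05 and -2.97 on day 9, against -5.83 and -5.71 on day 7. Both genotypes rose without overlap, by 2.50 ± 0.33 (adjusted p = 0.00948) in knockout and 2.26 ± 0.33 (adjusted p = 0.0183) in control cells, and 1 array of each day 7 group was below background. Kcnc2 rose by 2.32 ± 0.48 and 2.54 ± 0.48 with the same reserve, and Kcnc4 by 1.08 ± 0.19 and 1.83 ± 0.19. The 3 others called in both were Kcnj11, the pore of the ATP-sensitive channel (1.38 in knockout and 1.52 in control cells), Cacnb2 (1.17 and 1.13) and Kcnab1 (0.98 and 1.01). Scn1a was called in control cells (1.55 ± 0.32, adjusted p = 0.041), with a change of 0.82 ± 0.32 in knockout cells (adjusted p = 0.168), and its dimmer probe did not pass in control cells (0.64 ± 0.27, adjusted p = 0.192). Kcnk1 likewise was called in control cells (0.73), with 0.18 in knockout cells.

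**Figure D4:**
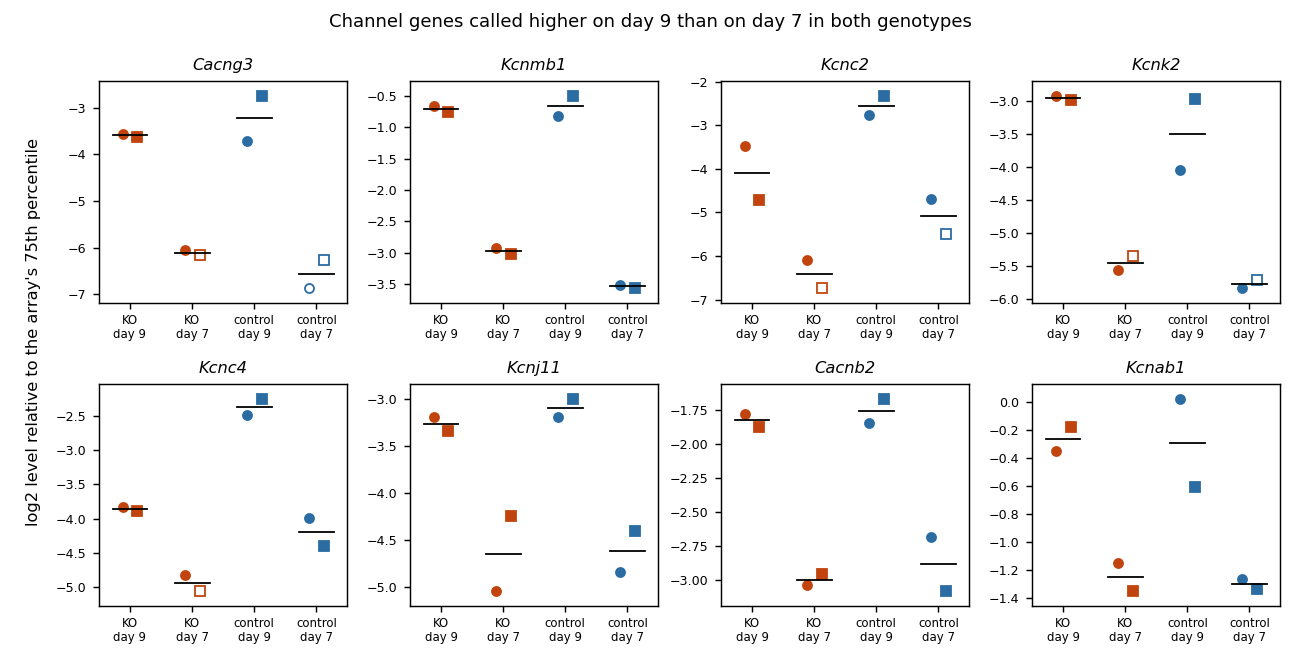
Log2 level relative to the array's 75th percentile (vertical axis, a scale per gene) of the 8 channel genes called higher on day 9 than on day 7 in both knockout (KO) and control cells. Circles are replicate 1 and squares replicate 2, open symbols are not well above background, and the line is the group mean. In each genotype both day 9 arrays lie above both day 7 arrays in all 8 panels.

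Genes called in knockout cells and not in control cells included Cacna1g (1.30 ± 0.19 in knockout and 0.34 ± 0.19 in control cells), Kcnn3 (1.32 and 0.80), Kcne1l (1.32 and 0.62), Kcnv1 (1.20 and 0.60), Kcnc1 (0.996 and 0.29) and Cacna1h (1.01 and 0.45). The interaction term was not called for any of these. The call of Cacna1h rests on 1 of its 2 kept probes, as the other had a change of -0.21 ± 0.21, and the dimmer probe of Kcne1l was not called either (0.55 ± 0.27, adjusted p = 0.254). The dimmer probe of Cacna1g just missed the threshold (1.13 ± 0.26, adjusted p = 0.0501). In control cells a dimmer probe did pass for Kcnn3 (1.78 ± 0.38, adjusted p = 0.0452) and for Kcnc1 (1.15 ± 0.15, adjusted p = 0.0126), so that for these 2 the absence of a call in control cells depends on the probe. Genes lower on day 9 in knockout cells included Kcnj8, Kcnh8 (-1.24) and Kcnj12 (-0.70). Kcnj8, the ATP-sensitive channel pore of mural cells, had log2 levels of -5.75 and -7.61 on day 9, against -3.95 and -4.39 on day 7 in knockout cells, with 1 array of day 9 below background (-2.51 ± 0.57, adjusted p = 0.0458). In control cells both day 9 arrays and 1 of day 7 were below background for Kcnj8.

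Kcnh2, which carries the ERG current, was the channel gene called lower on day 9 in control cells. Its log2 levels there were -0.83 and -1.21 on day 9, against 0.32 and 0.27 on day 7. In knockout cells they were -0.88 and -0.62 on day 9, against -0.04 and -0.20 on day 7. Day 9 was lower without overlap in both genotypes, with a change of -1.31 ± 0.18 in control cells (2.48-fold lower, adjusted p = 0.0157). The change in knockout cells, -0.63 ± 0.18, was not called (adjusted p = 0.0852). Pan-neuronal genes were called lower on day 9 in 4 of 12 cases in knockout cells and in 2 of 12 in control cells, with 0 called higher in either.

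**Figure D5:**
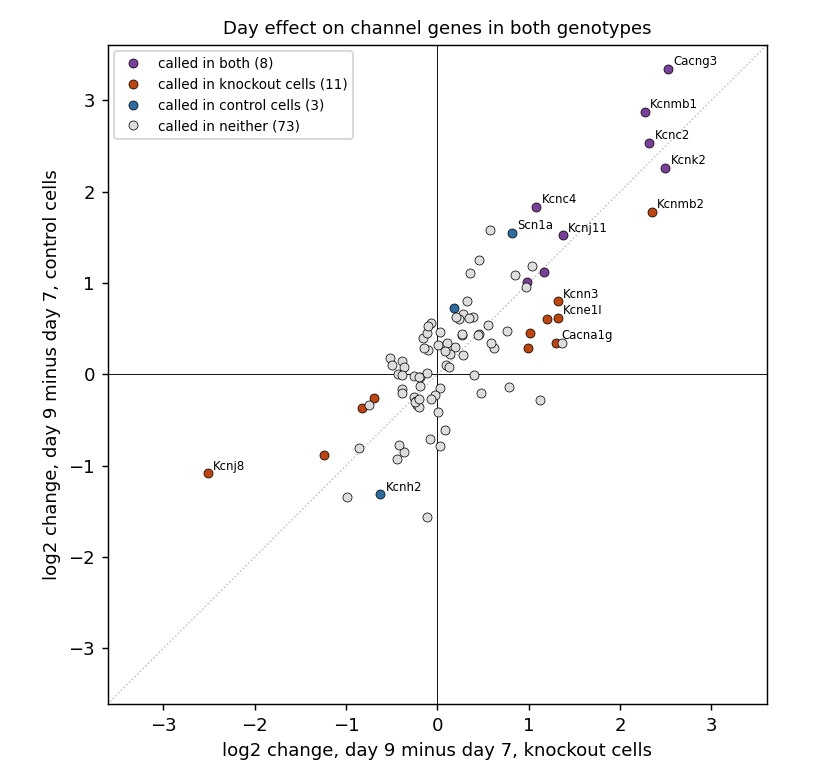
Log2 change between day 9 and day 7 in knockout cells (horizontal axis) and in control cells (vertical axis) for the 95 channel genes, coloured by the call in each genotype. The 8 genes called in both lie in the upper right, and the dotted line marks equal changes.

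Genes that anchor, carry or modulate these channels without being channel genes by symbol were followed as a separate list of 37 tested genes. In the mean of both days 11 were called lower and 2 higher, where 9.35% of all genes were called lower and 5.49% higher. The share called higher was close to that of all genes. The median log2 change of the list was -0.37, beside -0.04 for all genes. Those lower included Dpp6 (-0.91 ± 0.12, adjusted p = 0.0115) and Dpp10 (-0.53 ± 0.12, adjusted p = 0.0323), which join A-type channels as Kcnip4 does. Ank3, the ankyrin that gathers sodium channels at the axon initial segment, changed by -0.42 ± 0.09 (adjusted p = 0.0338), Sptbn4, its spectrin partner, by -0.998 ± 0.21 (adjusted p = 0.0313), and Cntnap2, which places Kcna1 channels along the axon, by -0.95 ± 0.21 (adjusted p = 0.0327). Fgf13, which binds sodium channels, changed by -0.96 ± 0.16 (adjusted p = 0.0186). The 2 called higher were Cntn2 (1.14 ± 0.29, adjusted p = 0.0459) and Rcor2 (0.70 ± 0.16, adjusted p = 0.0355). Rcor2 is a corepressor related to the one that works with Rest, and Rest itself was not called (0.23 ± 0.15, adjusted p = 0.33).

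Letters of the Rest binding motif were searched on both strands of the 250 base windows. Its left part, TTCAGCACC, was found in 0 of the 94 windows of tested channel genes and in 0.301% of all windows. Its right part, GGACAG, was found in 18.1% of the channel windows and 18.7% of all windows. The GC box core GGGCGG was present in 41.5% of the channel windows and 32.7% of all windows, and in 14 of the 32 windows of 23 genes called lower (43.8%) and 5 of the 5 windows of the 4 genes called higher. The letters TATAAA were in 4.26% of the channel windows and 12.4% of all. Matches of GGGCGG and GGACAG can share bases, and no test was made of these shares. In the sequences printed above, the GC box core is in the windows of Kcnc4 and Kcne1l and not in that of Cacng2.

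The knockout effect on genes of chromosome 11 was compared with that on the pooled named genes of the other chromosomes. Whether any other single chromosome was shifted was not tested. The 1252 genes tested on chromosome 11 had a median log2 change of 0.34 in the mean of both days. The median of the pooled genes was 0.01. On chromosome 11, 376 genes were called higher and 30 lower. The 10 channel genes on it had a median of 0.10, and 1 was called, Kcnj12, which was lower. Those 10 include Cacna1g (0.10), Kcnmb1 (0.26), Cacnb1 (0.19) and Kcnh4 (-0.25). The part of the chromosome in their values was not tested.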

How the data were processed

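Arrays were 1-colour Agilent SurePrint G3 mouse arrays, all on 1 slide, and the submitters' processing notes name Agilent Feature Extraction 10.5.1. The deposited processed signal is an intensity per spot, from which background was subtracted and a spatial trend removed, per the file headers. The authors also deposited a log2 value table of the same arrays, whose columns had medians of 5.81, with its normalization not given in the sources used here, and it served as an alternative. Each array had 62976 spots. The 3671 control spots and 104 to 166 outlier spots were left out, and 0 were saturated. The 75th percentile ran from 649 to 1691 intensity units, with 55.9% to 67.9% of spots well above background. The number of arrays limits the precision. Arrays of 1 group correlated at r 0.989 to 0.994 and those of different groups at 0.962 to 0.988.

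Each array's 75th percentile was subtracted from its log2 processed signals, spots of a probe were averaged, and a gene with several kept probes was represented by the brightest on average. Names came from RefSeq accessions matched to a mouse gene table on GRCm38.p6. Groups and replicate numbers came from the titles. limma 3.58.1 in R 4.3.3 (lmFit, eBayes, two-sided) fitted 4 group means (4 residual degrees of freedom, 2.53 prior), with Benjamini-Hochberg adjustment over 24644 genes, and was tested on simulated data. Where both arrays of a group were below background and both of the other group were above it, a change is a bound.

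Alternatives were normexp (offset 50), quantile normalization, median centring, the deposited table, other probe filters, the mean of all probes, the replicate number as a block, only the groups compared, and each array left out. The normexp alternative used the median spot signal, since the mean signal was not in the files. Genes are named if they were called with the largest changes, up to 15 each way in a comparison, if they are on a list of motor neuron excitability genes, if they were highest or lowest in a family, or if they lie on chromosome 11 or X. Other genes called in the mean of both days and a few uncalled relatives set beside them were named after their values were seen. The members and lists were chosen with earlier results of these data known. Mnx1 was not analysed here, and some channel genes that enter the counts are not reported here by name.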

Additional observations from a re-analysis of the deposited data

Results flagged for a closer look

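Cacna1g, a T-type calcium channel gene, drew attention because both knockout arrays lay above both control arrays on day 9 and below them on day 7. This pattern was seen in 1 of 95 channel genes (1.05%) and in 1.97% of all genes, so it was not more frequent among channel genes. The difference between the knockout effects was 0.96 on the log2 scale (SE 0.27), and the interaction term of limma did not pass after adjustment over all genes (adjusted p = 0.773). For its dimmer kept probe that difference was 0.61 (SE 0.37, adjusted p = 0.875), with a day 7 change of -0.10 (SE 0.26). The gene lies on chromosome 11.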

How the results depend on the processing

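None of the called channel genes changed direction under any alternative, and of 1358 values of called genes under alternatives, 742 stayed past the threshold and 616 did not; the counts of calls changed more. On day 7 (0 calls), the filter for probes above background on all arrays gave 2. On day 9 (16), normexp gave 6, no filter on dim probes 0, and a fit of the groups compared alone 1. In the mean of both days (37), normexp gave 17, median centring 23 and no filter 2. For day 9 against day 7, normexp gave 7 and no filter 3 in knockout cells (19), and normexp gave 3, no filter 1 and the groups alone 1 in control cells (11). Without a filter more genes are adjusted over, and the groups alone leave fewer arrays for the spread. The cause of the changed counts was not tested for any of these settings. With 1 array left out, the counts ran from 0 to 0 on day 7, 0 to 10 on day 9, 8 to 25 in the mean, 2 to 16 for the day in knockout cells, 1 to 11 in control cells, and 0 to 0 for the interaction.

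The replicate number as a block gave 26 calls on day 9. Deviations of arrays with the same number correlated between -0.25 and 0.46 over the pairs of groups, and were not above 0.1 in every pair. The 75th percentile was 1088 to 1691 intensity units on arrays of replicate 1 and 649 to 854 on those of replicate 2. What arrays of the same number share beyond this was not tested. The low signal of dim probes limits what can be said of the 17 tested genes with an array below background.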
